A study of Mus musculus with 6 samples.

Results

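The protein-coding genes of the Hox clusters A, B, C and D were described in 6 RNA-seq libraries of mouse large intestine. Every symbol made of Hox, a cluster letter and a paralog number was taken, which gave 39 of the 35434 genes in the table: 11 in cluster A, 10 in cluster B, 9 in cluster C and 9 in cluster D. The series concerns mice with inflammatory bowel disease (IBD) that received regulatory T cells (Tregs), either control cells (Ctrl-Tregs) or cells treated with lenvatinib, an inhibitor of several receptor tyrosine kinases (Lenv-Tregs). The libraries carry the titles int 2 and int 3, each with replicates 1 to 3, and both groups are large intestine of such mice. The titles do not tell which group had which cells, so all differences are given as int 3 against int 2 and no treatment is assigned. Strain, genotype, sex, age, the disease model, the stretch of large intestine taken and a group without transfer are not given in the sources used here. The labels also leave unsaid whether replicates are separate animals. All p-values therefore reflect the spread among these libraries alone, which may be technical.

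Hox genes encode homeodomain transcription factors that set the position of cells along the body axis. Genes at the 3′ end of a cluster have low paralog numbers and act anteriorly, and genes at the 5′ end have high numbers and act posteriorly, an arrangement called collinearity. Adult gut keeps part of this pattern: 5′ genes such as Hoxb13, Hoxa13 and Hoxd13 mark the hindgut and the distal colon, in the epithelium, in the mesenchyme or in both. The factors bind DNA with cofactors of the TALE homeobox family such as MEIS proteins, the CDX proteins activate many of the genes, and Polycomb and trithorax proteins keep the clusters silent or active.

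In int 3-2, the second int 3 library, Hoxb13 and Hoxd10 to Hoxd13 stood far below int 2. Most 3′ genes of clusters A, B and D stood above it, as did Hoxb9, Hoxd9 and Hoxa9 to Hoxa11. Hoxb13 stood at 16.4 FPKM (fragments per 1e6 fragments and per kilobase of gene) against an int 2 mean of 287 ± 1.60 (SD, n = 3), and Hoxd13 at 0.286 against 10.3 ± 0.675. Hoxb8, a 3′ gene by comparison, stood at 2.52 FPKM against 0.155 ± 0.0550. Int 3-3 lay close to int 2 for most Hox genes, with Hoxd13 at 26.4, and int 3-1 lay between the other int 3 libraries. In the test of the groups 0 of the 18 Hox genes that could be tested passed, against 15.3% of all tested genes (8.64% higher and 6.70% lower in int 3).

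The promoters of Hoxb8, Hoxd13 and Hoxa13 are printed because these genes were the highest, the lowest and nearly level in int 3-2 relative to int 2. Each sequence holds the 250 bases before the gene's start, 5′ to 3′ on the gene's strand, from RefSeq on build GRCm38.p6, which is not the build of the expression table. Capitals mark every match, on either strand, to TTTATNG (the letters CDX proteins prefer, also bound by posterior Hox proteins), to TATAAA (the TATA box) and to CCAAT (the CCAAT box). A promoter was found for 22 of the 39 Hox genes, and Hoxb13 was not among them. The Hoxb8 promoter is at chr11:96281655-96281904 on the plus strand, that of Hoxd13 at chr2:74667975-74668224 on the plus strand and that of Hoxa13 at chr6:52260881-52261130 on the minus strand.
Hoxb8: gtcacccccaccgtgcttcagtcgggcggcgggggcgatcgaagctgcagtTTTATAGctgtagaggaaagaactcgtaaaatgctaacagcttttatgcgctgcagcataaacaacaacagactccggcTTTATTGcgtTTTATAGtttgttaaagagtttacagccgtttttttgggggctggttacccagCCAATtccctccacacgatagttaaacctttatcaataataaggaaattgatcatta
Hoxd13: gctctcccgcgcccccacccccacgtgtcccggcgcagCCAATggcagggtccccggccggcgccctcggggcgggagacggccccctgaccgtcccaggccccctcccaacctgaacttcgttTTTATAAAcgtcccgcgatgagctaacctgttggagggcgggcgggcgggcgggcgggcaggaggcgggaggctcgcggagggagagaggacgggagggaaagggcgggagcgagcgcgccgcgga
Hoxa13: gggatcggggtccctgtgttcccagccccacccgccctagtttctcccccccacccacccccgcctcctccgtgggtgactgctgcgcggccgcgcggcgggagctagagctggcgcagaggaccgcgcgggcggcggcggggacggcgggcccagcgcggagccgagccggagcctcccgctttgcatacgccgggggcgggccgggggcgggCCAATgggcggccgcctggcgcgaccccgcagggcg

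The Hoxb8 promoter holds 3 TTTATNG matches, which begin 199, 120 and 110 bases before the start. Those at 199 and 110 overlap TATAAA on the minus strand, and CCAAT begins at 57. The Hoxd13 promoter holds no TTTATNG; its TATAAA matches, at 126 on the minus strand and 124 on the plus strand, overlap each other, and its CCAAT begins at 212. The Hoxa13 promoter has a CCAAT at 36 and no match to the other letters. The 22 Hox genes with a promoter have 24 promoters. TTTATNG was found in 2 of the 24, those of Hoxb8 and Hoxd4, and in 9.8% of all 32851 promoters. TATAAA was found in 4 of the 24 against 12.4% of all promoters, and CCAAT in 14 against 33.8%. TGACAG, the letters bound by MEIS proteins, was found in 2 against 15.9%. The 3 promoters also differ in composition: the Hoxb8 promoter has 12 CpG sites and 44.4% G and C, that of Hoxd13 has 31 and 74.4%, and that of Hoxa13 has 35 and 80.0%. A match describes the sequence and shows no binding.

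The libraries were of even depth, with 34.0 to 35.1 M fragments (M, 1e6) each. The int 2 libraries lay close together: over the genes with a mean of 10 or more fragments, their counts had a mean chi-square of 2.75 per degree of freedom, where sampling alone gives 1, and those of int 3 had 59.1. For the 29 Hox genes that met this minimum the values were 2.76 in int 2 and 274 in int 3. Among 2644 genes for which int 3-2 and int 3-3 lay 2-fold or more apart, int 3-1 lay between them for 89.4%. The summed markers of epithelium were at 4234 to 4275 FPKM in int 2 and 3750 to 4797 in int 3, and those of smooth muscle at 4111 to 4124 and 3329 to 3885, so the libraries hold intestinal wall as labelled. Fewer cells of a type and less RNA per cell cannot be told apart in such bulk tissue.

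In int 2 the Hox transcripts were mostly Hoxb13. The FPKM of all 39 genes summed to 394, 388 and 391 in the int 2 libraries (replicates 1, 2 and 3), and to 287, 183 and 385 in those of int 3. Paralog group 13 made up 78.7%, 79.2% and 78.9% of this total in int 2, and 60.2%, 14.6% and 80.2% in int 3. The shares of groups 1 to 8 were 10.7%, 10.7% and 10.9% in int 2 and 22.4%, 48.5% and 10.8% in int 3. In FPKM groups 1 to 8 summed to 42.4, 41.7 and 42.8 in int 2 and to 64.4, 88.8 and 41.7 across int 3, so their larger share in int 3-2 came with a higher sum and a lower total. By these 2 shares int 3-3 was close to int 2 and int 3-1 was intermediate. Other shares of int 3-3 lay outside the int 2 range, such as cluster D at 8.24% against 3.67% to 3.95% and group 9 at 3.25% against 4.54% to 4.71%.

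**Figure D1:**
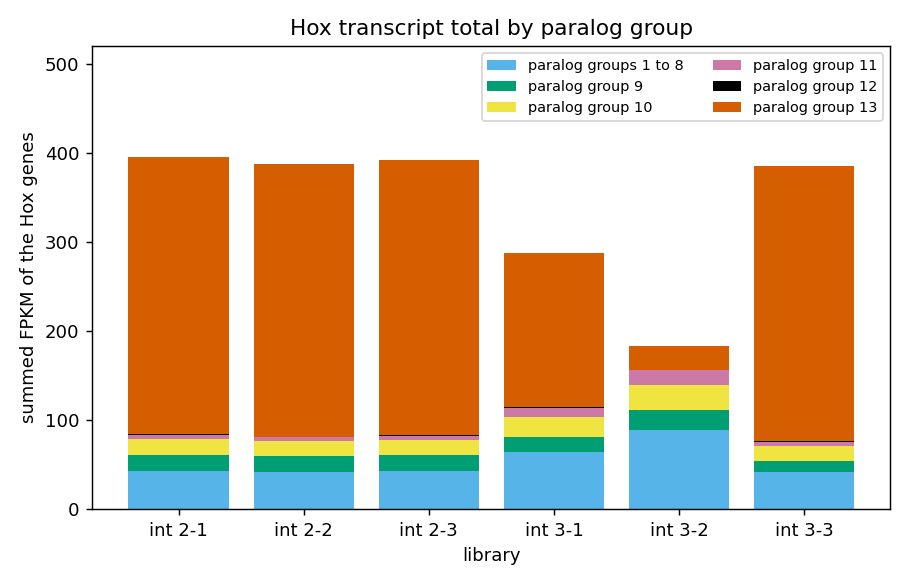
Summed FPKM of the Hox genes in each library (y axis, from 0), with each bar stacked by paralog group. The total is 394, 388 and 391 in int 2 and 385 in int 3-3, but 287 in int 3-1 and 183 in int 3-2, where group 13 gives 26.8 FPKM.

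Without Hoxb13 the order of the totals turned. The other 38 genes summed to 107, 102 and 103 FPKM in int 2, and to 141, 167 and 118 across int 3, so all int 3 libraries lay above int 2. Cluster A summed to 64.2, 60.2 and 61.4 in int 2 and to 82.3, 104 and 63.7 in int 3. Cluster B summed to 314, 313 and 315 in int 2 and to 184, 71.6 and 289 in int 3. Only int 3-2 had more cluster A than cluster B transcript, and its cluster D sum of 6.73 lay below the int 2 sums of 15.6, 14.6 and 14.4, while int 3-1 had 20.3 and int 3-3 had 31.7. Cluster C was close to silent, at 0.286 to 0.399 FPKM in int 2 and 0.225 to 0.627 in int 3.

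**Figure D2:**
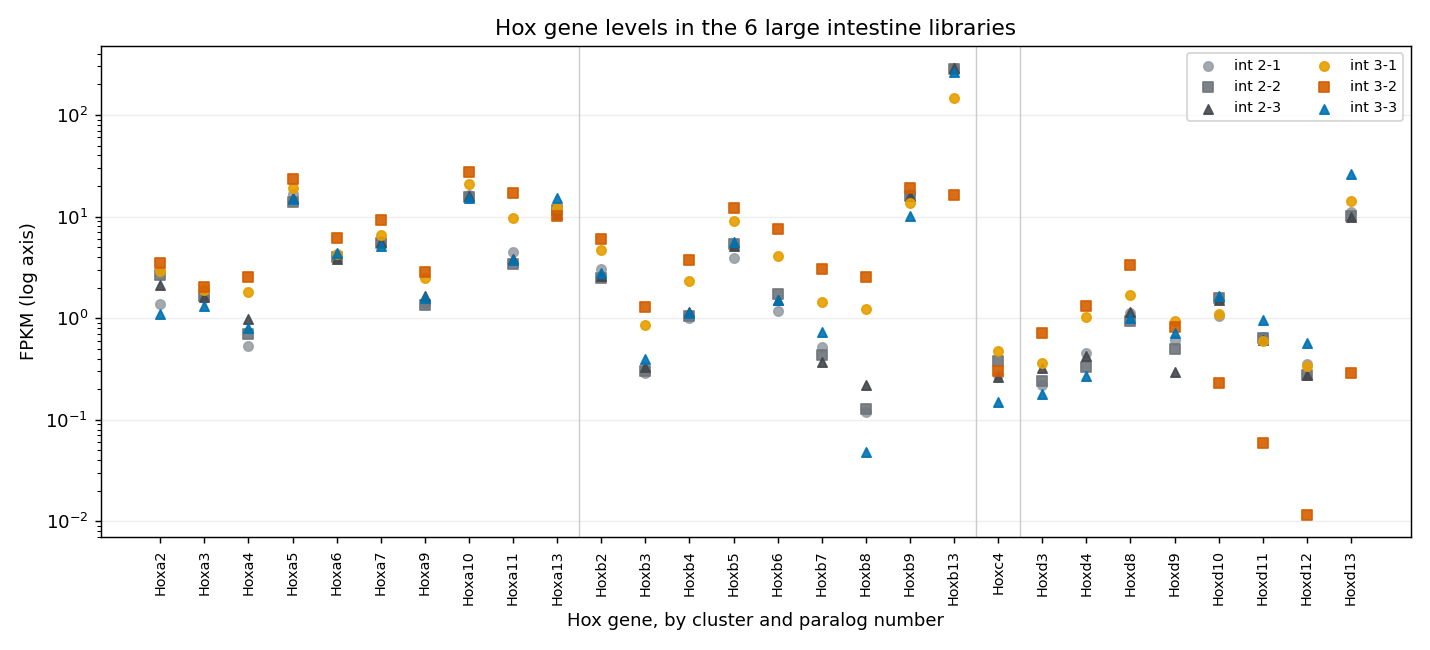
FPKM (log axis) of Hox genes with a mean of 10 or more fragments in each of the 6 libraries, ordered by cluster and paralog number, with 1 point per library. Hoxb13 is highest in int 2 at 285 to 288, and the int 3-2 points lie apart from the others at the 5′ end of clusters B and D.

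Hoxb13, the 5′-most gene of cluster B and a marker of distal colon and prostate epithelium, had 288, 285 and 288 FPKM in replicates 1, 2 and 3 of int 2. In the int 3 libraries, in the same order, it had 146, 16.4 and 267. The values of other genes are listed in this order too. All int 3 values lay below all int 2 values, by little in int 3-3 and by most in int 3-2. Its 13507, 13457 and 13485 fragments in int 2 differed by less than sampling noise (chi-square 0.836, 2 degrees of freedom), while int 3-2 had 763. The level was 0.0570 of the int 2 mean in int 3-2 (95% counting interval 0.0530 to 0.0613), 0.510 in int 3-1 (0.497 to 0.523) and 0.930 in int 3-3 (0.911 to 0.948). These intervals, here and below, are exact binomial ones for the fragments of both sides and cover counting error only. In limma's test of the groups the log2 change was -1.71 (SE 0.95, adjusted p = 0.27).

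Hoxd13, which patterns digits, hindgut and anal sphincter, stood at 11.1, 10.1 and 9.80 FPKM in int 2 and at 14.2, 0.286 and 26.4 across int 3. The int 3 values surrounded those of int 2: int 3-3 was at 2.56 times the int 2 mean (2.42 to 2.70), int 3-1 at 1.38 and int 3-2 at 0.0277 (0.0179 to 0.0410), from 25 fragments. Int 3-3 thus had 92.4 times the level of int 3-2. By the size of the difference in log2(FPKM + 1) between int 3-2 and int 3-3, Hoxd13 ranked 6 and Hoxb13 ranked 9 of the 12525 tested genes. The group difference was -0.48 (SE 1.08, adjusted p = 0.79). Hoxa13, the partner of Hoxd13 in hindgut and limb development, stood at 11.7, 11.6 and 10.5 FPKM in int 2 and at 12.1, 10.1 and 15.3 across int 3. It was at 0.898 of the int 2 mean in int 3-2 (0.807 to 0.998) and 1.36 in int 3-3 (1.24 to 1.48), so the group 13 genes of clusters A, B and D stood at unlike fractions of int 2 in the same library.

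The rest of the 5′ end of cluster D stood low with Hoxd13 in int 3-2. Hoxd10, known from spinal motor neurons and limbs, stood at 1.06, 1.58 and 1.5 FPKM in int 2 and at 1.09, 0.232 and 1.65 across int 3. Hoxd11 stood at 0.656, 0.631 and 0.606 in int 2 and at 0.600, 0.0594 and 0.965 across int 3, and Hoxd12 at 0.357, 0.275 and 0.277 and at 0.335, 0.0116 and 0.574. In int 3-2 the 3 genes were the lowest of the 6 libraries, at 0.168 (0.104 to 0.258), 0.0941 (0.0402 to 0.188) and 0.0383 (0.000957 to 0.220) of the int 2 mean, from 22, 8 and 1 fragments. In int 3-3 Hoxd11 and Hoxd12 stood at 1.53 and 1.89 times the int 2 mean and above every int 2 library. Summed over Hoxd10 to Hoxd13 the FPKM was 13.2, 12.6 and 12.2 in int 2 and 16.2, 0.589 and 29.6 across int 3.

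The 3′ genes of cluster D lay the other way in int 3-2. Hoxd8 stood at 1.12, 0.926 and 1.16 FPKM in int 2 and at 1.68, 3.30 and 1.01 across int 3, or 3.08 times the int 2 mean in int 3-2 (2.58 to 3.68). Hoxd4 and Hoxd3, at 0.221 to 0.456 FPKM in int 2, stood at 3.28 (2.50 to 4.31) and 2.71 (1.67 to 4.40) times their int 2 means in int 3-2. Hoxd9 stood at 0.293 to 0.611 in int 2 and 0.706 to 0.935 in int 3, with no overlap. In int 3-2 the turn from above to below the int 2 mean thus fell between Hoxd9 and Hoxd10. Exons of Hoxd3 and Hoxd4 share 388 bases on the same strand in the GENCODE M21 annotation, so how fragments were split between them is uncertain. On the same strand Gm28230 shares 2225 bases with Hoxd3 and 1154 with Hoxd4. Gm28309 shares 104 with Hoxd10 and 455 with Hoxd11, and Gm28308 shares 267 with Hoxa2 and 482 with Hoxa3. The same uncertainty holds for these genes.

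**Figure D3:**
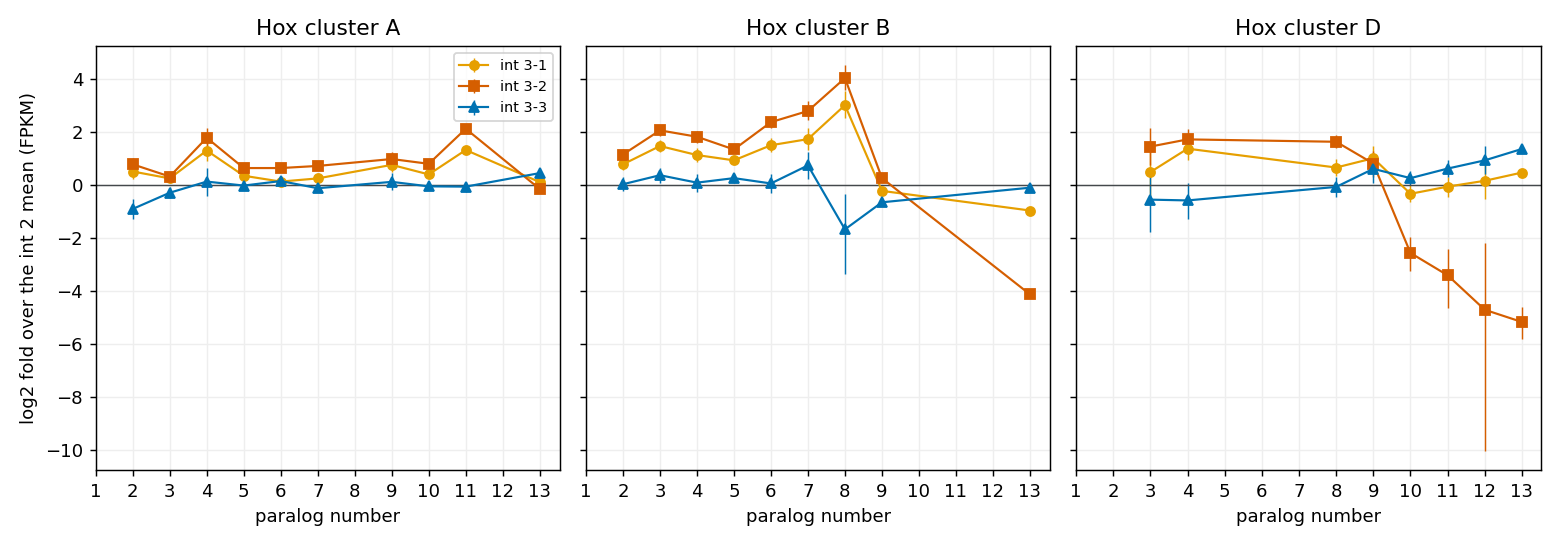
Log2 fold of each int 3 library over the int 2 mean (y axis) against paralog number (x axis), in panels for clusters A, B and D, for Hox genes with a mean of 10 or more fragments; bars are 95% counting intervals. Int 3-2 lies above 0 for the 3′ genes and far below 0 for Hoxb13 and Hoxd10 to Hoxd13, int 3-3 lies within 1 of 0 except at Hoxb8 and Hoxd13, and int 3-1 lies between for most genes.

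Cluster B had the largest folds above int 2. Hoxb8, which acts in haematopoietic progenitors and in microglia, stood at 0.119, 0.128 and 0.218 FPKM in int 2 and at 1.24, 2.52 and 0.0483 across int 3. That is 8.01 times the int 2 mean in int 3-1 (5.69 to 11.5), 16.3 times in int 3-2 (11.9 to 22.7) and 0.312 in int 3-3 (0.0969 to 0.781), from 125, 253 and 5 fragments. Int 3-1 and int 3-2 lay above every int 2 library and int 3-3 below every one. Hoxb7 stood at 0.517, 0.433 and 0.369 in int 2 and at 1.45, 3.03 and 0.732 across int 3, which was 6.89 times the int 2 mean in int 3-2 (5.40 to 8.84). Hoxb6, a gene of lateral plate mesoderm, stood at 1.18, 1.73 and 1.49 in int 2 and at 4.11, 7.51 and 1.52 across int 3, or 5.13 times in int 3-2 (4.37 to 6.03). For Hoxb7 no int 3 library overlapped int 2, and for Hoxb6 int 3-3 lay within the int 2 range.

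Nearer the 3′ end of cluster B the folds were smaller. Hoxb5, known from the enteric nervous system as an activator of Ret, stood at 3.88, 5.31 and 5.09 FPKM in int 2 and at 8.98, 12 and 5.67 across int 3. Hoxb4, a gene of haematopoietic stem cells, stood at 1.00, 1.04 and 1.15 in int 2 and at 2.31, 3.72 and 1.12 across int 3. Hoxb2, a hindbrain gene, stood at 3.07, 2.49 and 2.59 in int 2 and at 4.63, 5.99 and 2.76 across int 3. In int 3-2 these genes were at 2.52, 3.50 and 2.20 times the int 2 mean, and Hoxb3, at 0.291 to 0.331 FPKM in int 2, at 4.14 times. Hoxb9, a gene of the thoracic skeleton next to Hoxb8, differed from its neighbour: it stood at 16.6, 15.9 and 15.8 in int 2 and at 13.7, 19.2 and 10.2 across int 3, or 1.19 times the int 2 mean in int 3-2 and 0.634 in int 3-3. Hoxb2 to Hoxb8 together gave 10.1, 11.4 and 11.2 FPKM in int 2 and 23.6, 36.0 and 12.2 across int 3. Hoxb1 had 0 fragments in each library, which allows up to 3 in each.

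In cluster A the fold was largest near the 5′ end. Hoxa11, a gene of limb, kidney and uterus, stood at 4.5, 3.42 and 3.84 FPKM in int 2 and at 9.71, 17.0 and 3.73 across int 3. It was at 2.48 times the int 2 mean in int 3-1 (2.25 to 2.73) and 4.33 times in int 3-2 (3.98 to 4.72), while int 3-3 lay within the int 2 range. Hoxa10, its neighbour and also a uterine gene, stood at 16.3, 15.5 and 16.0 in int 2 and at 20.9, 27.5 and 15.3 across int 3. Hoxa9, a gene of blood progenitors, stood at 1.41, 1.35 and 1.64 in int 2 and at 2.46, 2.87 and 1.59 across int 3. In int 3-2 Hoxa10 and Hoxa9 were at 1.73 and 1.96 times the int 2 mean.

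Among the middle genes of cluster A, Hoxa5, which is needed for lung and gut mesenchyme, was the most abundant. It stood at 16.5, 13.8 and 15.2 FPKM in int 2 and at 19.2, 23.5 and 14.8 across int 3. Hoxa6 stood at 4.10, 3.98 and 3.79 in int 2 and at 4.32, 6.14 and 4.37 across int 3, with no overlap, and Hoxa7 at 5.75, 5.49 and 5.62 and at 6.63, 9.17 and 5.15. These genes were at 1.55, 1.55 and 1.63 times the int 2 mean in int 3-2, a narrow band beside 2.52, 5.13 and 6.89 for Hoxb5, Hoxb6 and Hoxb7 of the same paralog numbers.

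At the 3′ end Hoxa4 stood at 0.533, 0.701 and 0.974 FPKM in int 2 and at 1.80, 2.51 and 0.800 across int 3, with 3.41 times the int 2 mean in int 3-2 (2.64 to 4.42). Hoxa3, a gene of thymus and parathyroid development, stood at 1.58, 1.66 and 1.63 in int 2 and at 1.91, 2.01 and 1.32 across int 3. Hoxa2, a hindbrain gene, stood at 1.39, 2.63 and 2.10 in int 2 and at 2.88, 3.48 and 1.09 across int 3. For all 3 genes int 3-1 and int 3-2 lay above every int 2 library, and for Hoxa2 and Hoxa3 int 3-3 lay below every one.

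Cluster C and the remaining genes gave few fragments. Hoxc4 stood at 0.276, 0.378 and 0.264 FPKM in int 2 and at 0.474, 0.302 and 0.150 across int 3, so the groups overlapped. Hoxc6, Hoxc8 and Hoxc10 had 0 fragments in every int 2 library and at most 0.0768 FPKM in int 3, and Hoxc11, Hoxc12 and Hoxc13 had 0 in all libraries. Hoxc5 was at 0.0107 to 0.0538 FPKM, Hoxc9 at 0.0107 or less, and Hoxd1 gave a value in int 2-2 only, of 0.0156. With Hoxb1, 4 of the 39 genes had no fragment anywhere, and expression below these limits was not detectable at this depth.

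The order of the Hox genes by level within a library followed from these shifts, FPKM being per length. In int 2 Hoxb13 (287 ± 1.60) stood far above Hoxb9 (16.1 ± 0.413), Hoxa10 (15.9 ± 0.398) and Hoxa5 (15.2 ± 1.36), which did not differ beyond their spread (SD, n = 3). Hoxa13 (11.3 ± 0.632) and Hoxd13 (10.3 ± 0.675) came next, with ranges that overlapped. In int 3-2 the order began with Hoxa10 at 27.5, Hoxa5 at 23.5, Hoxb9 at 19.2 and Hoxa11 at 17.0, followed by Hoxb13 at 16.4. In int 3-3 Hoxb13 at 267 led as in int 2, followed by Hoxd13 at 26.4.

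Counts over the 29 Hox genes with a mean of 10 or more fragments summarize the libraries. In int 3-2, 12 of the 29 stood 2-fold or more above the int 2 mean (9.41% of all 16402 such genes in the table) and 5 stood 2-fold or more below it (6.80% of all). The 12 were Hoxa4, Hoxa11, Hoxb2 to Hoxb8, Hoxd3, Hoxd4 and Hoxd8, and the 5 were Hoxb13 and Hoxd10 to Hoxd13. In int 3-1, 9 stood 2-fold or more above (5.68% of all) and 0 below (4.43%). In int 3-3 only Hoxd13 stood 2-fold or more above (1 of 29; 3.49% of all), and Hoxb8 and Hoxc4 stood 2-fold or more below (2 of 29; 5.13%). Int 3-2 lay above every int 2 library for 21 of the 29 (55.1% of all genes) and below every one for 6 (29.8%), the 5 named and Hoxa13.

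By paralog number the median fold of int 3-2 turned once from above to below int 2. The median log2 fold over the int 2 mean in int 3-1, int 3-2 and int 3-3 was 0.87, 1.29 and -0.14 for the 10 genes of groups 1 to 4, and 0.78, 1.48 and 0.01 for the 8 genes of groups 5 to 8. It was 0.75, 0.80 and 0.11 for the 3 genes of group 9, 0.15, -2.57 and 0.25 for the 5 of groups 10 to 12, and 0.10, -4.13 and 0.44 for the 3 of group 13. Over all 16402 genes these medians were 0.06, 0.13 and -0.05. The groups were drawn after the values were seen, and Hoxa10 and Hoxa11 stood above int 2 within the groups 10 to 12.

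Int 3-1 stood close to midway between the other int 3 libraries. For 19 of the 29 Hox genes int 3-2 and int 3-3 were 2-fold or more apart (16.1% of all genes), and int 3-1 lay between them for 18 of these 19 (89.4% of all genes so far apart). On the way from int 3-3 to int 3-2, in FPKM, int 3-1 stood at a median of 46.6% for these Hox genes (quartiles 41.4% and 55.2%) and 48.1% for all such genes (36.4% and 62.4%). Hoxb13 was at 48.1%, Hoxb8 at 48.3%, Hoxd13 at 46.6% and Hoxa11 at 45.2%, so genes high in int 3-2 and genes low in it stood at like distances. Over all 29 Hox genes int 3-1 lay between for 25 (69.6% of all genes). Whether int 3-1 is an independent library was not tested.

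The groups were compared with limma on log2(FPKM + 1), on genes that reached 1 FPKM in 3 or more libraries, which left 18 of the 39 Hox genes. Each of the 18 reached it in at least 2 int 2 libraries. With Benjamini-Hochberg adjustment over all 12525 tested genes, 0 of the 18 passed at 0.05, against 15.3% of all genes tested. At unadjusted p under 0.05 there were 2 of 18 against 32.1% of all genes tested, Hoxb5 (log2 change 0.73, SE 0.25, limma adjusted p = 0.098) and Hoxa9 (0.40, SE 0.16, adjusted p = 0.13), and limma's voom on whole fragments also called 0. Of the 18 changes 14 were positive, with a median of 0.27 and a range from -1.71 for Hoxb13 to 0.98 for Hoxa11 (SE 0.46, adjusted p = 0.19), against a median of 0.03 over all tested genes. The groups did not overlap for 3 of the 18 (40.4% of all tested genes), 2 higher genes, Hoxa6 and Hoxb5 (22.4% of all), and 1 lower gene, Hoxb13 (17.9%). The SD of log2 values was larger in int 3 than in int 2 for 18 of 18 Hox genes (83.5% of all), with medians of 0.469 and 0.0874 against 0.137 and 0.0486 over all tested genes.

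**Figure D4:**
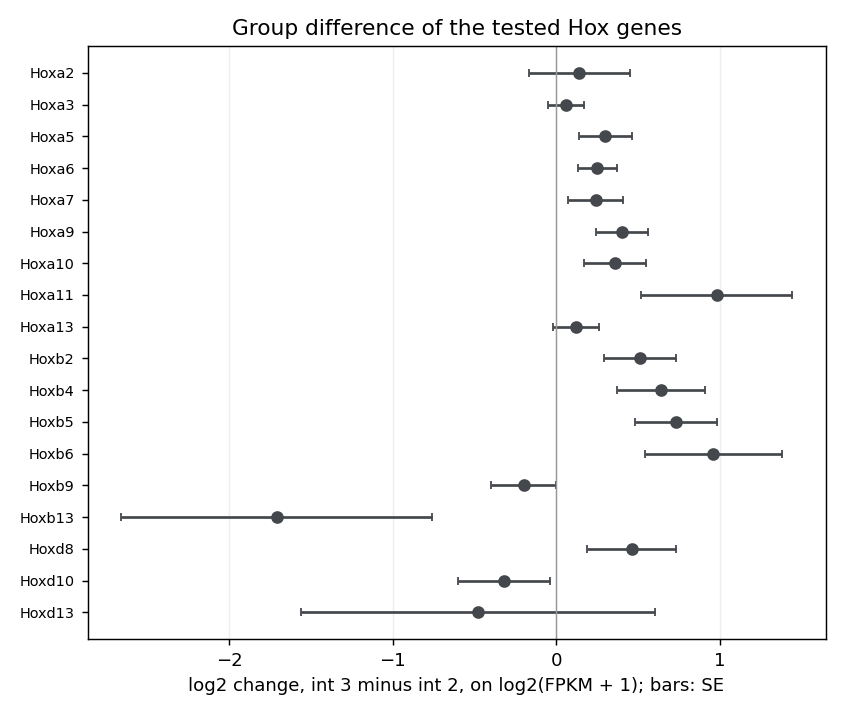
Log2 change, int 3 minus int 2, of the 18 tested Hox genes on the log2(FPKM + 1) scale (x axis), with points for limma's estimates and bars for the SE. The estimates run from -1.71 for Hoxb13 to 0.98 for Hoxa11, and 0 genes passed at an adjusted p of 0.05.

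Single int 3 libraries decided this count. Without int 3-3, 10 of the 18 Hox genes passed, all higher, against 39.2% of all tested genes (24.9% higher): Hoxa5, Hoxa7, Hoxa9, Hoxa10, Hoxa11, Hoxb2, Hoxb4, Hoxb5, Hoxb6 and Hoxd8. Without int 3-2, 2 of 18 passed, against 21.0% of all: Hoxd13, higher (0.85, limma adjusted p = 0.043), and Hoxb9, lower (-0.41, adjusted p = 0.047). The Hoxd13 difference was negative with all libraries and ranged from -1.35 to 0.85 with 1 library left out.

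Among the non-coding transcripts of the clusters, 2 of 6 tested passed the test of the groups, both lower (6.70% of all genes tested were called lower). Hottip, a long non-coding RNA beside Hoxa13 that is known to help keep 5′ HoxA genes active, stood at 9.55, 9.30 and 10.3 FPKM in int 2 and at 5.95, 4.77 and 7.19 across int 3. It fell by 0.63 on the log2 scale (SE 0.13, limma adjusted p = 0.025), while Hoxa13 did not pass (0.12, adjusted p = 0.58). Hoxb5os stood at 11.5, 13 and 12.6 in int 2 and at 8.34, 6.86 and 9.78 across int 3 and fell by 0.53 (SE 0.12, adjusted p = 0.035). All int 3 values of both lay below all int 2 values, with int 3-2 lowest. Without any 1 of int 2-1, int 2-2, int 2-3 or int 3-1 neither passed (adjusted p = 0.092 to 0.14). Without a filter on low genes neither passed (0.07 for Hoxb5os and 0.053 for Hottip), and Hoxb5os did not pass with voom (0.057), with median-of-ratios scaling (0.05) or with the replicate number as a block (0.078).

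The other non-coding transcripts are given by level. Hoxa11os was the most abundant, at 63.7, 62.3 and 61.4 FPKM in int 2 and 56.4, 61.6 and 51.2 across int 3. Hoxb3os stood at 2.09, 1.91 and 1.32 and at 3.76, 5.28 and 1.75, Hoxaas3 at 5.56, 5.25 and 4.80 and at 6.84, 9.93 and 3.76, and Hotairm1 at 6.57, 3.90 and 5.90 and at 3.94, 6.39 and 3.83. Hotair, which lies in cluster C, had 0 fragments in each library. Exons of Hoxa11 and Hoxa11os overlap by 800 bases on opposite strands, those of Hoxb3 and Hoxb3os by 2250, of Hoxb2 and Hoxb3os by 953, of Hoxa7 and Hoxaas3 by 586 and of Hoxb5 and Hoxb5os by 100 in GENCODE M21. Whether the counting used strand was not given in the sources used here, so reads of these pairs cannot be told apart.

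The CDX factors, which activate Hox genes, and other posterior gut factors did not pass in any of 4 tested members (median -0.05). Of all tested genes 15.3% passed. Cdx2 stood at 38.6, 37.1 and 36.4 FPKM in int 2 and at 50.5, 89.9 and 17.6 across int 3, with int 3-2 highest and int 3-3 lowest of the 6 libraries (log2 change 0.21, SE 0.53, limma adjusted p = 0.82). Cdx1 stood at 199, 195 and 196 and at 194, 178 and 212 (-0.02, adjusted p = 0.90, and 0.05 after scaling to TPM). Evx1, the homeobox gene beyond Hoxa13, was too low to test, at 0.313, 0.342 and 0.274 in int 2 and 1.34, 2.21 and 0.593 across int 3. Evx2, the one beyond Hoxd13, was at 0.366, 0.243 and 0.405 in int 2 and 0.405, 0 and 0.565 across int 3, with 0 in the library where Hoxd13 was lowest.

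Among the cofactors of the TALE family, 0 of 7 tested members passed (median 0.08), against 15.3% of all tested genes. Meis1 stood at 4.25, 4.66 and 4.46 FPKM in int 2 and 4.63, 6.03 and 4.12 across int 3 (log2 change 0.11, limma adjusted p = 0.58). Meis2 stood at 2.19, 2.32 and 2.53 and at 3.27, 3.97 and 2.33 (0.31, limma adjusted p = 0.21). For 7 of the 9 cofactors int 3-2 lay above every int 2 library, and for 6 of the 9 int 3-3 lay below every one. Int 3-2 lay above every int 2 library for 55.1% of all genes with a mean of 10 or more fragments. The share of all genes with int 3-3 below every int 2 library was not computed.

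Of 8 tested neighbours of the clusters 0 rose (8.64% of all tested genes), 1 fell (6.70% of all) and 7 did not pass (median 0.00). Ttll6, a tubulin-modifying enzyme gene near Hoxb13, stood at 7.48, 7.45 and 7.66 FPKM in int 2 and at 3.41, 2.42 and 4.63 across int 3, and fell by 0.96 (SE 0.17, limma adjusted p = 0.017). Prac1, a further neighbour, had no values under that symbol, so it was not analysed here. Of 24 tested Polycomb genes 2 rose (8.64% of all tested genes), 0 fell (6.70% of all) and 22 did not pass (median 0.00). Phc2, a subunit of Polycomb repressive complexes of the PRC1 type, stood at 10.9, 11.1 and 10.6 in int 2 and at 13.7, 14.5 and 13.5 across int 3 (log2 change 0.33, SE 0.05, adjusted p = 0.011), and Pcgf3, another such subunit, at 5.85, 5.91 and 6.09 and at 7.64, 8.54 and 7.24 (0.34, SE 0.07, adjusted p = 0.026). Of 12 tested trithorax and H3K27 demethylase genes 0 passed (median -0.04), against 15.3% of all tested genes. Without any 1 of int 2-1, int 2-2, int 2-3 or int 3-1, Ttll6, Phc2 and Pcgf3 did not pass (adjusted p = 0.058 to 0.12), nor did Phc2 (0.053) and Pcgf3 (0.086) with the replicate number as a block.

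Some markers of cell types and gut segments followed the library order of Hox genes, and others did not. The sum of 10 enteric neuron and glia markers, none of them at 0, was 79.2, 79.8 and 73.3 FPKM in int 2 and 109, 141 and 74.6 across int 3. All 10 lay above the int 2 range in int 3-1 and in int 3-2, against 2 above and 5 below in int 3-3, the order seen for the 3′ Hox genes. Int 3-2 lay above that range for 55.1% of all genes with a mean of 10 or more fragments. The shares over all genes for the other int 3 libraries were not computed. Of the 10 only Gfap rose (0.466 ± 0.0470 to 3.07 ± 0.956 FPKM, SD, n = 3, limma adjusted p = 0.0044), against 8.64% of all tested genes. Fibroblast markers summed to 468, 467 and 469 in int 2 and 552, 587 and 513 across int 3. Of these markers 4 of 7 rose, against 8.64% of all tested genes.

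Segment markers differed between the int 3 libraries as well. The 4 distal colon markers analysed summed to 292, 283 and 281 FPKM in int 2 and to 109, 24.3 and 191 across int 3, the library order of Hoxb13. Of these Atp12a, a colonic proton pump, stood at 55.6, 54.1 and 52.8 and at 22.5, 0.558 and 42.4, and Insl5, a hormone of colonic endocrine cells, at 236, 228 and 228 and at 85.7, 22.4 and 148 (limma adjusted p = 0.24 and 0.11). The other markers of this list were low and ordered otherwise: Scnn1b, an epithelial sodium channel subunit, stood at 0.195, 0.334 and 0.152 and at 1.09, 1.31 and 0.497, and Scnn1g at 0.192 FPKM or less. Of 8 small intestine markers 1 could be tested and did not pass. Fabp6, an ileal bile acid binding protein, stood at 9.67, 8.08 and 6.37 in int 2 and at 30.2, 3.40 and 52.2 across int 3, the library order of Hoxd13, and made up most of the sum of this list in every library but int 3-2. Alpi, an alkaline phosphatase of the small intestine, stood at 0.387, 0.224 and 0.238 and at 2.11, 4.33 and 0.0244, highest in int 3-2, as was Gata4 at 0.533. The other 5 stood at 0.233 FPKM or less in every library. B cell markers summed to 126, 130 and 124 in int 2 and to 22.5, 4.05 and 36.2 across int 3, also the library order of Hoxb13. Of these 4 of 4 fell, against 6.70% of all tested genes. Mesothelial markers summed to 1.36, 0.818 and 1.10 and to 7.09, 9.11 and 6.40, highest in int 3-2 like the 3′ Hox genes but above int 2 in int 3-3 as well. Squamous markers summed to 0.591 to 0.946 in int 2 and 0.807 to 1.27 in int 3. The part of cell composition and of the segment sampled in the Hox values was not tested.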

How the data were processed

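The authors deposited 1 table of FPKM values with a column for each of the 6 samples. Genome build GRCm39 was used, per the submitters' processing notes, and the aligner, counting tool, annotation and strand setting are not given in the sources used here. Total RNA was extracted with TRIzol and a VAHTS Universal V10 kit served for the libraries, according to the labels' protocols.

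FPKM values are multiples of what 1 fragment is worth. These steps gave whole fragments for 12486 of 12525 tested genes (99.7%, relative tolerance 1e-06), used for counting intervals (95%), chi-square values and voom, and never for the main test. Genes that reached 1 FPKM in 3 or more of 6 libraries were tested. Their log2(FPKM + 1) values were fitted by limma (version 3.58.1, R version 4.3.3) using lmFit and eBayes with its trend option. The tests were two-sided, and Benjamini-Hochberg adjusted p-values were read at 0.05. This scale understates changes of low genes. A gene rose or fell only if it passed. Folds of single libraries use FPKM without a pseudocount and a minimum mean of 10 fragments. Python 3.11.15 with pandas 2.3.3, numpy 2.4.6 and scipy 1.17.1 gave the sums and intervals, matplotlib 3.10.9 drew the figures, and the fits were tested on simulated data. Hox genes with a group mean of 1 FPKM or more are given in every library, and other genes come from lists of cofactors, neighbours, regulators and markers. The members and lists were chosen with earlier results of these data known. Some genes are counted in sums and counts but not reported here by name. Alternatives were pseudocounts, filters, scalings, library weights, voom with the total fragments as library size, the replicate number as a block and leaving out each library. Promoters came from a RefSeq table, and exon overlaps from GENCODE M21.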

Additional observations from a re-analysis of the deposited data

How the results depend on the processing

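The 0 calls among the Hox genes were also found with pseudocounts of 0.1 and 0.01, without a filter, at a mean FPKM of 5 or more, with TPM, median-of-ratios and quantile scaling, with voom and with the replicate block. With library weights, a fit that did not fully converge, 16 passed, and with 1 library left out 0 to 10. Of all genes 1921 passed; 889 did with the replicate block, 9221 with library weights and 615 to 4913 with 1 library left out (635, 615, 637 and 642 without int 2-1, int 2-2, int 2-3 and int 3-1, 2633 without int 3-2, 4913 without int 3-3). Same-numbered libraries deviated from their group means with correlations of -0.015, 0.004 and -0.022. The int 2 libraries lay close together, so these correlations cannot tell whether the numbers pair the samples. The block took limma's adjusted p over 0.05 for Phc2 (0.053), Pcgf3 (0.086) and Hoxb5os (0.078). Hoxb5os was also lost without a filter (0.07), with median-of-ratios scaling (0.05) and with voom (0.057), and Hottip without a filter (0.053). The sign turned for Hoxd13 with library weights (0.43) and Cdx1 with TPM (0.05). With 1 library left out the log2 change ran from -0.07 to 0.48 for Hoxa2, -0.01 to 0.17 for Hoxa3, -0.02 to 0.25 for Hoxa13, -0.41 to 0.01 for Hoxb9, -1.35 to 0.85 for Hoxd13, -0.08 to 0.05 for Cdx1, -0.31 to 0.83 for Cdx2 and -0.02 to 0.21 for Meis1. Beyond the fits with fewer samples, the cause was not tested. In alternatives chosen after seeing the data (TPM, median-of-ratios, leaving out each int 2 library) 12 to 14 Hox genes stood 2-fold or more above int 2 in int 3-2, and 5 below. Scaling moved only Hoxc4 in int 3-2 (TPM) and Hoxa5 in int 3-3 (median-of-ratios) across the int 2 mean. The median of all genes was 0.03, and 0.10 with TPM. Depth limits the genes below 10 fragments, for which no fold is given.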

Other observations

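The tested genes nearest to Hoxb13, by Euclidean distance of log2(FPKM + 1) minus the int 2 mean over the 6 libraries, were AI854703 (0.531), Fxyd4 (0.661), Tnni1 (0.742), Ctse (0.790), Cyp2f2 (0.949), Insl5 (1.02), Casp14 (1.02) and Clca1 (1.03). Genes with a Gm or Rik name and Hox genes were left out. Fxyd4, a regulator of the sodium pump in kidney and colon, stood at 14.1, 14.3 and 14.8 FPKM in int 2 and at 5.18, 0 and 8.79 across int 3. Clca1, a secreted goblet cell protein, stood at 187, 185 and 184 and at 83.5, 20.8 and 137. Muc2, another goblet cell gene but not among the nearest, lay the other way, at 94.2, 96.1 and 93.5 and at 274, 467 and 102. Ctse, an intracellular aspartic protease, stood at 40.8, 41.0 and 43.3 and at 19.2, 3.36 and 34.1. Since the genes were chosen for a profile like that of Hoxb13, the order of their libraries is a description only.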
